A study of Caenorhabditis japonica with 3 samples.

Results

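The last pooled library of a *Caenorhabditis japonica* embryo series was divided into a later window of 7 embryos, taken 370 to 430 minutes after the 4-cell stage, and an earlier window of 7 embryos, taken at 300 to 360 minutes. These 14 of the 46 embryos in the series are defined by their labelled time, with 1 embryo in the counts every 10 minutes. All were cut from females, collected at the 4-cell stage and incubated at 20°C before freezing, and no strain, allele or treatment beyond time is given for either window. RNA was measured by CEL-Seq, in which the polyA RNA of each embryo receives its own barcode before the embryos are pooled, amplified together and sequenced from the 3′ end. The morphological stage of the embryos is not given, and the time column is the only measure of age. The question the comparison addresses is which transcripts changed in level between these neighbouring windows of the time course.

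As background, nematode embryos start from RNA loaded by the mother, which is cleared as the embryo's own genes are switched on. In the related *C. elegans*, most cells are born in the first part of embryogenesis. The later part is taken up by differentiation and elongation, when genes for muscle, gut, neurons and the first cuticle are switched on while many genes of dividing cells are turned down. The table names genes by identifier only and pairs none with a symbol, so no gene below is assigned to such a program. Genes are grouped by what they did in the earlier embryos of the series.

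Both windows came from the same pool, so a difference between pools does not enter the comparison, but depth does. The later embryos had 2305 to 354620 reads in the listed genes, with a median of 101529, and the earlier embryos had 2896 to 332199 reads, with a median of 40018. An embryo was called shallow when it had fewer reads than 0.25 of the median of all 46 embryos. That limit put 2 later embryos, at 390 and 400 minutes, and 3 earlier embryos, at 300, 310 and 320 minutes, below 15457 reads. Because the shallow earlier embryos are the 3 youngest, age and depth cannot be told apart at that end of the comparison. The 8-base barcodes of the shallow embryos are shown because the same barcodes tagged other embryos in the early pool (1-cell stage to 130 minutes) and the middle pool (140 to 290 minutes):
barcode 1, 300 minutes: CATCACGC
barcode 2, 310 minutes: GTCGTCGC
barcode 3, 320 minutes: ACGACCGC
barcode 10, 390 minutes: GTCGTTCC
barcode 11, 400 minutes: ACGACTCC

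Barcode 1 gave 5280 reads in the late pool, 188509 in the early pool and 63666 in the middle pool. Barcode 2 gave 2896, 75884 and 222870 reads, and barcode 10 gave 2305, 257770 and 219980 reads, in the same order of pools. These 3 barcodes were thus shallow in the late pool and not in the other two. Barcode 3 gave 11241, 48077 and 12783 reads, and barcode 11 gave 13455, 26508 and 12178 reads, so both were also shallow in the middle pool. The embryos at 330 and 340 minutes carry barcodes 15 and 16 in place of 4 and 5, and their columns bear the suffixes #1 and #2, which the sources do not explain. The labels name extra embryos at 330 and 340 minutes, and which embryos these columns hold is not stated. These embryos were deep, with 172129 and 332199 reads.

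**Figure D1:**
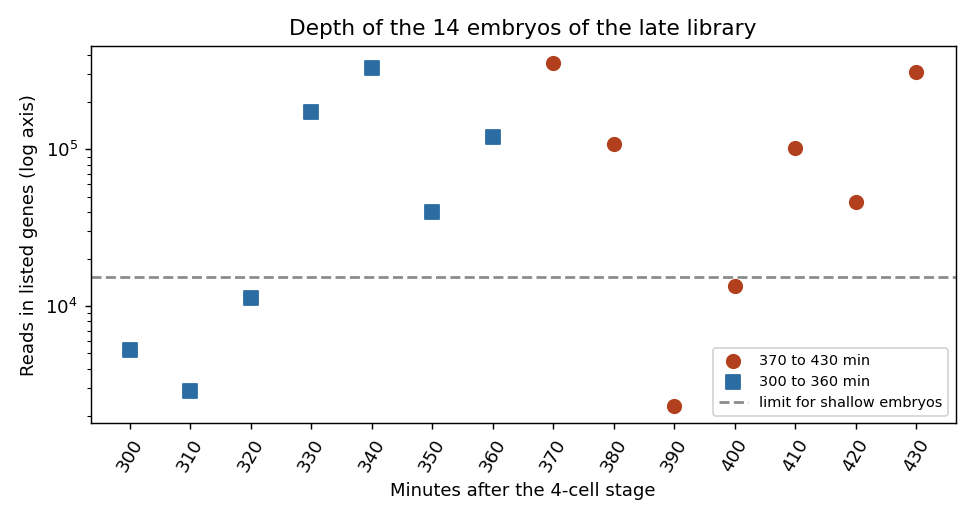
Reads in the listed genes of each embryo (log axis) against its time in minutes, with circles for 370 to 430 minutes, squares for 300 to 360 minutes and a dashed line at the limit for shallow embryos. The 2 later embryos at 390 and 400 minutes and the 3 earlier embryos at 300, 310 and 320 minutes lie below the line.

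A small set of transcripts separated the windows. Of 1256 genes tested with edgeR's quasi-likelihood test, 69 (5.49%) changed at an adjusted p under 0.05. Of these, 38 (3.03%) were higher and 31 (2.47%) were lower at 370 to 430 minutes. All 69 differed by at least 2-fold in the fit. The risers had a median log2 change of 1.82 (quartiles 1.61 and 2.23) and 15 of them exceeded 4-fold. The genes that fell had a median log2 change of -1.67 (quartiles -1.93 and -1.51) and 7 of them exceeded 4-fold. Over all 1256 genes the median log2 change was 0.02, with quartiles of -0.42 and 0.49. The median riser averaged 891 counts per 1000000 reads (CPM) in the later embryos and 169 CPM in the earlier ones, while the median gene that fell averaged 333 CPM in the later embryos and 1020 CPM in the earlier ones.

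Complete separation of the windows was rare. In 7 of the 1256 genes (0.557%) all 7 later embryos lay above all 7 earlier ones, and 3 of these were among the 38 risers. In 10 genes (0.796%) all 7 later embryos lay below all 7 earlier ones, and 8 of these were among the 31 genes that fell.

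The number of calls depended on the embryos, the genes tested and the method. On the same 14 embryos, limma-trend called 5 of 1256 genes, and edgeR with no low-count filter called 201 of 3930 (5.11%). With all 46 embryos in the fit, 19 of 2411 passed (0.788%). Without the embryos at 300, 310 and 320 minutes, 26 of 2086 genes tested passed, 9 of them among the 69. All 69 kept their direction there, as did 1095 of all 1256 genes, and the median log2 changes were 1.71 for the risers and -1.63 for the genes that fell. Without all 5 shallow embryos, a setting added once the depths were known, 3 of 2158 genes passed, 1 of them among the 69. All 69 kept their direction, as did 1115 of all 1256 genes, with medians of 1.83 and -1.59 for the risers and the genes that fell. Without the deep embryos at 330 and 340 minutes, 16 of 931 genes passed, 4 higher and 12 lower. Leaving out single embryos gave 30 to 117 genes, or 3.28% to 9.76% of the 902 to 1760 genes then tested. These settings share most embryos with the full comparison, so a kept direction is no independent support.

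**Figure D2:**
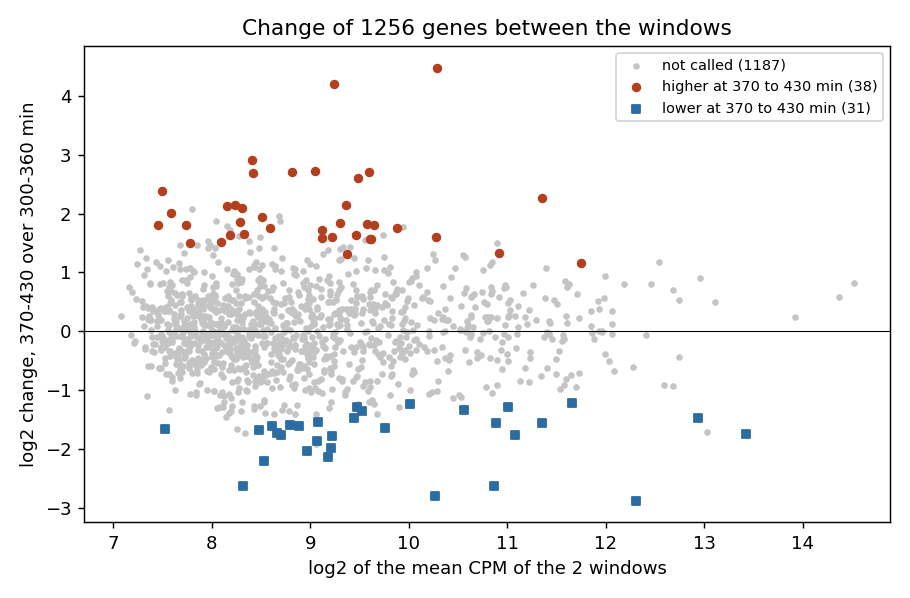
The log2 change of each of 1256 genes, 370 to 430 over 300 to 360 minutes, against the log2 of its mean CPM over the windows, where each point is a gene. Circles mark the 38 genes called higher, squares the 31 called lower and grey points the genes that were not called.

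The gene with the largest rise, CJA15981, was first seen in this library. Its level in the 7 later embryos was 208, 562 and 7800 CPM as lowest, median and highest, against 0, 28.2 and 462 CPM in the 7 earlier embryos. It had reads in all 7 later embryos and in 4 of the earlier ones. As counted, the windows overlapped only through the embryo at 350 minutes, which had the 462 CPM. The zeros at 300, 310 and 320 minutes do not exclude further overlap. There 3 reads, an approximate upper limit for a count of 0, correspond to 588, 833 and 319 CPM, above the lowest later value. The later value at 390 minutes, 384 CPM, rests on 1 read. The 3 highest values, 3840, 7800 and 3600 CPM, belonged to the 3 oldest embryos, at 410, 420 and 430 minutes. The means were 2400 ± 2860 CPM in the later embryos and 96.7 ± 170 CPM in the earlier ones (SD, n = 7 each). The fitted log2 change was 4.48 ± 0.81 (SE, edgeR adjusted p = 0.00222). In summed reads, 1548 stood in the later window and 39 in the earlier one, after 0 reads in the 16 embryos of the early library and 0 in the 16 of the middle library. The call was lost without the 5 shallow embryos (log2 change 4.59, edgeR adjusted p = 0.0979). The gene passed the low-count filter mainly through its later values, which could favour genes high in the later window.

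CJA04597 rose with a narrower spread. Its level was 522, 1150 and 2080 CPM (lowest, median and highest) in the later embryos and 0, 40.2 and 107 CPM in the earlier ones. As counted, every later embryo lay above every earlier one. The means were 1170 ± 546 CPM in the later embryos and 44.1 ± 46.2 CPM in the earlier ones (SD, n = 7 each), and the log2 change in the fit was 4.20 ± 0.49 (SE, edgeR adjusted p = 2.36e-06). It passed under every alternative that was run, among them the one with no low-count filter. In the full comparison its later values brought it past that filter, which could favour genes high in the later window. The zeros at 300, 310 and 320 minutes do not show absence. In those embryos 3 reads, an approximate upper limit for a count of 0, correspond to 588, 833 and 319 CPM. The limits of 588 and 833 CPM lie above the lowest later value, so overlap is not excluded. The 4 deep earlier embryos, at 330 to 360 minutes, had 3 to 10 reads each and 40.2 to 107 CPM, and the 1150 CPM at 390 minutes rests on 3 reads. Before this library CJA04597 had 130 reads in the early embryos and 10 in the middle ones, with means of 142 ± 128 and 3.03 ± 8.02 CPM (SD, n = 16 each). Its level in the middle library was thus below that in both the early library and the later window.

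CJA07653 fell the most. Its level was 562, 903 and 2140 CPM (lowest, median and highest) in the later embryos, against 2600, 7770 and 17800 CPM in the earlier ones, with no overlap as counted. The later values at 390 and 400 minutes, 768 and 562 CPM, rest on 2 and 6 reads. The highest values, 17800 and 13600 CPM, came from the embryos at 300 and 320 minutes, and the lowest earlier value came from the oldest of that window, at 360 minutes. The means were 1150 ± 582 CPM and 8980 ± 5350 CPM (later and earlier embryos, SD, n = 7 each), and the fit gave a log2 change of -2.88 ± 0.43 (SE, edgeR adjusted p = 0.000117). The gene was abundant before, with 13760 reads in the middle library and 673 in the early one. It did not pass without the 5 shallow embryos (log2 change -2.16, edgeR adjusted p = 0.0979) or with all 46 embryos in the fit (log2 change -2.48, edgeR adjusted p = 0.0808).

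The second fall by size, CJA10373, was set by a single embryo. Its level was 93.7, 295 and 714 CPM (lowest, median and highest) in the later embryos and 0, 319 and 13400 CPM in the earlier ones. The embryo at 340 minutes held 3326 of the 3365 reads of the earlier window, or 98.8%, and the other earlier embryos lay between 0 and 555 CPM, within or below the range of the later embryos. The medians of the windows therefore differed little, and the log2 change of -2.81 ± 0.86 (SE, edgeR adjusted p = 0.0499) turned to 1.00 when that embryo was left out and to 0.67 with DESeq2.

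**Figure D3:**
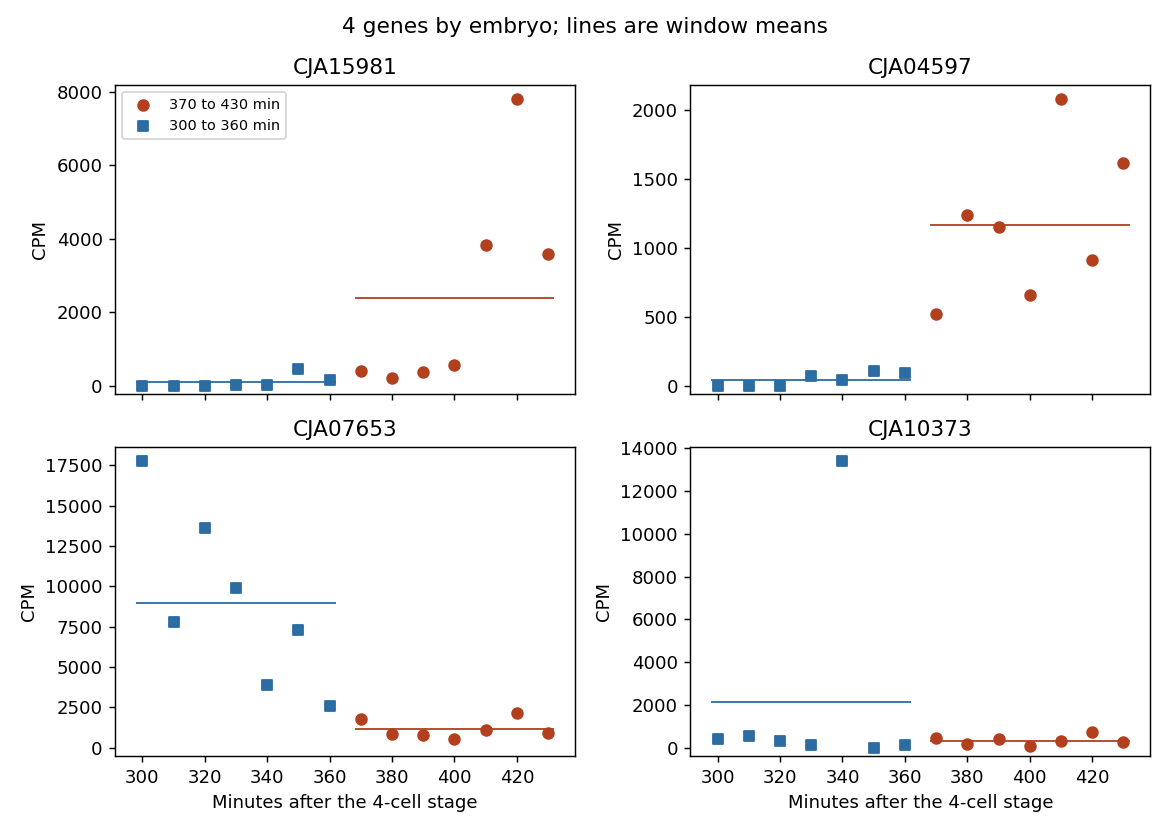
CPM of CJA15981, CJA04597, CJA07653 and CJA10373 in each embryo against its time in minutes, with circles for 370 to 430 minutes, squares for 300 to 360 minutes and horizontal lines at the window means. The values of CJA04597 and CJA07653 as counted do not overlap between the windows, while the earlier mean of CJA10373 is carried by its 13400 CPM at 340 minutes.

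Taken as sets, the called genes did not move at the same times. The summed level of the 38 risers was 3332 to 9887 CPM in the 5 embryos from 300 to 340 minutes, 18100 and 18440 CPM at 350 and 360 minutes, 28270 to 30660 CPM in the 4 embryos from 370 to 400 minutes, and 56640 to 62400 CPM in the 3 embryos from 410 to 430 minutes. The risers thus stepped up inside the later window as well as at its border. The 31 genes that fell had a summed level of 85510 to 111900 CPM from 300 to 320 minutes, then 80940, 58250 and 84510 CPM at 330, 340 and 350 minutes and 34040 CPM at 360 minutes. From 370 to 430 minutes they stayed between 18720 and 29590 CPM. The lowest sum of the earlier window was that of its last embryo. Of the 58250 CPM at 340 minutes, 13400 CPM came from CJA10373 alone. Since the called genes were chosen by the same contrast, the sums describe the calls and carry no test.

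The sets also differed in the 32 embryos of the early and middle libraries, which the comparison did not use. On a scale common to all 46 embryos, the summed level of the 38 risers was 2650 to 13100 CPM in the early embryos and 1470 to 9320 CPM in the middle ones. In 21 of the 38 the early mean was under 5 CPM, against 136 of the 1256 genes tested. By the middle library 5 of the 38 were still under 5 CPM, against 9 of 1256. Genes this low in the earlier libraries entered the tests through late reads, which could favour genes high in the later window. The summed level of the 31 genes that fell was 31500 to 120000 CPM in the early embryos and 40700 to 194000 CPM in the middle ones. The highest of these sums was that of a single embryo, at 240 minutes. In either library 0 of the 31 had a mean under 5 CPM. Few of the 1256 genes tested were under that limit (136 early, 9 middle), so this is not particular to the set. Between pools, library and time cannot be told apart.

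**Figure D4:**
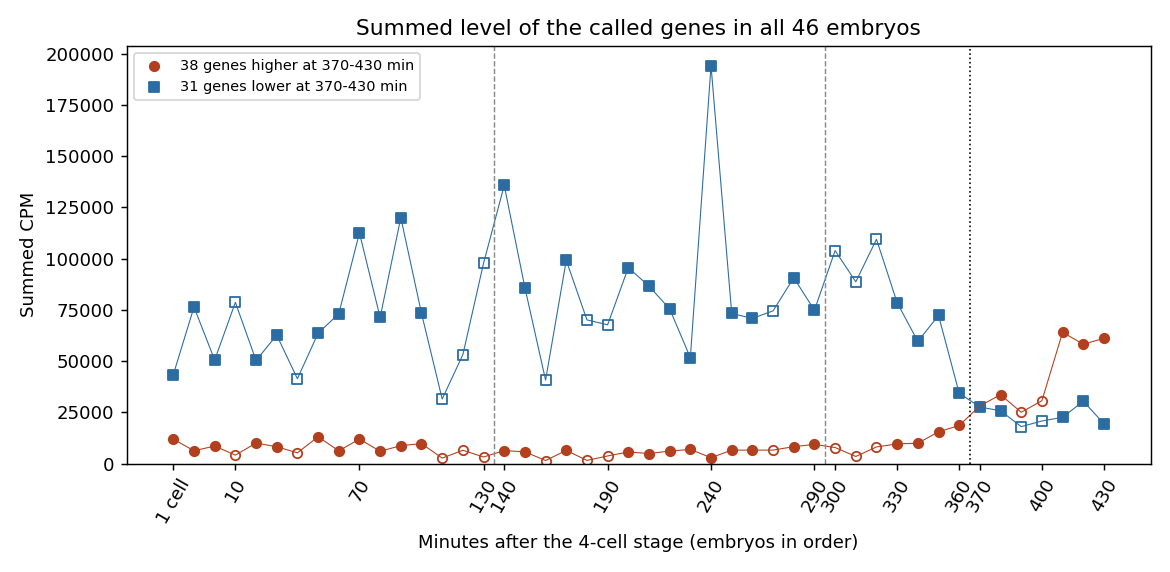
Summed CPM of the 38 risers (circles) and the 31 genes that fell (squares) in all 46 embryos in order of time, with open symbols for shallow embryos, dashed lines at the library borders and a dotted line between 360 and 370 minutes. The risers stay at or below 13100 CPM in the early and middle libraries, where the genes that fell range from 31500 to 194000 CPM. Both sets were chosen by their change within the last 14 embryos.

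To describe the windows without choosing genes by the contrast, all 3955 genes were put in classes from the early and middle libraries alone. Near-silent genes (60) had a mean under 5 CPM in both libraries. Middle-high genes (483) were at least 4 times higher in the middle than in the early library, and early-high genes (530) at least 4 times higher in the early one, each with at least 20 CPM where high. Steady genes (1678) were within 2 times of each other and at 20 CPM or more in both. Each near-silent gene had at least 106 reads in the late library, and the later window holds more of that library's reads (938901 against 684382 in the earlier window). How genes were selected for the table is not given, and selection on late reads could favour genes high in the later window, so this class is described without a p-value.

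The share of an embryo's reads in the 60 near-silent genes was 0.596%, 2.04% and 2.74% (lowest, median and highest) in the later window, against 0.138%, 0.249% and 0.802% in the earlier window. The values above 2% came from the embryos at 390, 410, 420 and 430 minutes, and the other later embryos lay within or just above the earlier range. The mean was 1.72% ± 0.959 in the later embryos and 0.362% ± 0.248 in the earlier ones (SD, n = 7 each), a difference of 1.36 percentage points. CJA15981 held the most reads of the class, 8.79% of its 18056, and without it the difference was 1.19 points.

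Steady transcripts took a smaller share of the later embryos' reads. They made up 42.4%, 45.5% and 49.1% (lowest, median and highest) of the later embryos' reads and 47.3%, 50.1% and 51.7% of the earlier embryos' reads. The means were 45.9% ± 2.58 and 49.8% ± 1.70 (later and earlier embryos, SD, n = 7 each), a difference of -3.90 points (two-sided exact permutation p = 0.00816, adjusted p = 0.0163 over 4 classes). The 4 classes include the near-silent one, whose low p made the adjusted p of steady and early-high genes smaller than without it. The smallest p that 7 embryos against 7 can give is 0.000583. The difference was -3.27 points without the embryos at 300, 310 and 320 minutes (exact permutation, adjusted p = 0.0929) and -3.47 points without those at 330 and 340 minutes (adjusted p = 0.0631), and so missed the threshold in both.

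The early-high class, transcripts of the first embryos, had a share of 1.61%, 2.09% and 3.25% (lowest, median and highest) in the later window and 1.35%, 1.42% and 2.18% in the earlier window. The means were 2.13% ± 0.545 and 1.60% ± 0.305 (later and earlier embryos, SD, n = 7 each), a difference of 0.53 points (exact permutation p = 0.0297, adjusted p = 0.0396). The highest value was that of the shallow embryo at 390 minutes, and without that embryo the difference was 0.34 points and did not pass (exact permutation, adjusted p = 0.0800). Leaving out any 1 of the embryos at 300, 320, 330, 340, 360, 410, 420 or 430 minutes also ended the call, at 0.488 to 0.541 points. With the stricter limit of 8 times, which keeps 278 of the 530 genes, the share was 0.949% in the later embryos and 0.457% in the earlier ones (exact permutation, adjusted p = 0.00466).

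Middle-high transcripts held 23.4%, 25.7% and 28.9% (lowest, median and highest) of the later embryos' reads and 22.7%, 25% and 26.6% of the earlier embryos' reads. They averaged 26% ± 2.12 of the later embryos' reads and 24.9% ± 1.44 of the earlier embryos' reads (SD, n = 7 each), and the difference of 1.11 points was within the spread (exact permutation p = 0.27, adjusted p = 0.27). For the 339 genes at least 8 times higher in the middle library the shares were 19.7% and 17.2%, later and earlier, a difference of 2.59 points (exact permutation, adjusted p = 0.0315). The shares of the classes and of the remaining genes sum to the whole of an embryo's reads, so they are not independent of each other.

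**Figure D5:**
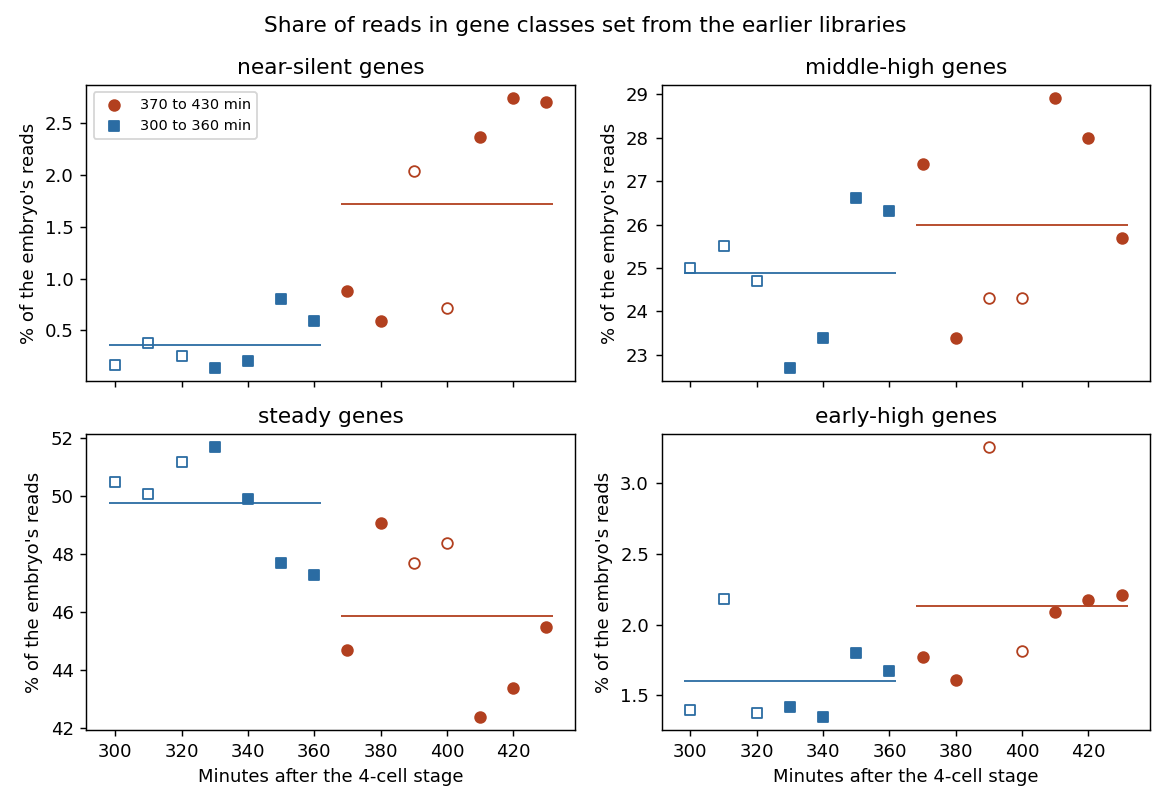
Percent of an embryo's reads in near-silent, middle-high, steady and early-high genes against its time in minutes, with circles for 370 to 430 minutes, squares for 300 to 360 minutes, open symbols for shallow embryos and horizontal lines at the window means. Near-silent genes reach 2.37% to 2.74% in the last 3 embryos, while steady genes lie at 42.4% to 45.5% there.

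The same classes were counted among the called genes. Of the 38 risers, 14 were middle-high, 5 near-silent, 3 steady and 1 early-high, and 15 belonged to the remaining genes. Of the 31 genes that fell, 12 were steady, 10 middle-high, 9 among the remaining genes, and none near-silent or early-high. Of the 1256 genes tested, 632 (50.3%) were steady, 271 (21.6%) middle-high, 327 (26%) among the remaining genes, 12 (0.955%) near-silent and 14 (1.11%) early-high. Steady genes were thus 7.89% of the risers and 38.7% of the genes that fell. Middle-high genes were 36.8% and 32.3%, and the remaining genes 39.5% and 29.0%, of the risers and of the genes that fell. Near-silent genes were 13.2% and early-high genes 2.63% of the risers. The near-silent genes tested entered through late reads, which could favour genes high in the later window. Their share of the risers is therefore no result about the class. Only 12 of the 60 near-silent and 14 of the 530 early-high genes had enough reads to be tested, so the counts for these classes speak for few genes.

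The number of different genes detected was not shown to differ. When each embryo was reduced to the 2305 reads of the shallowest embryo, the expected number of genes with a read was 1024, 1042 and 1091 (lowest, median and highest) in the later embryos and 942.7, 1019 and 1083 in the earlier ones. The means were 1050 ± 28.6 and 1018 ± 42.6 (later and earlier embryos, SD, n = 7 each), a difference of 31.7 genes (two-sided exact permutation p = 0.121). Before this reduction the counts ran from 1089 to 3820 genes in the later embryos and from 1068 to 3797 in the earlier ones.

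The choice among alternative 3′ ends gave no call between the windows. A peak entered when it held 10% of its gene or more, its gene had another such peak, and at least 4 embryos of each window had 5 reads of the gene. This left 539 peaks in 253 genes, whose shares were compared by quasi-binomial logistic regression. None passed (0.0%, smallest adjusted p = 0.952). Of the 539 peaks, 23, from 17 genes, had an unadjusted p under 0.05, no more than that threshold lets through when nothing differs. The median absolute difference between the window means was 5.75 percentage points. A share could rest on 5 reads of a gene in an embryo and 4 embryos in a window. The lack of calls therefore does not show that the use of 3′ ends was stable. In the 224 genes with 2 tested peaks, the share of the peak at the higher location was larger in the later window in 112, with a median difference of -0.02 points. The sources do not say which way locations are numbered, so a higher location does not mean one farther along the transcript.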

How the data were processed

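Per the labels' protocols, single embryos were prepared by CEL-Seq. Per the submitters' processing notes, the tools included Bowtie2 2.1.0, HTSeq 0.5.4p3 and CASAVA 1.8, without their roles. Genome build and annotation: not given in the sources used here. Per the file headers, the authors deposited raw counts of reads for each 3′ peak and each gene, for 3955 genes, with no normalization stated. The location of a peak and the barcode and index numbers are other values the authors deposited, without a stated origin for the location. The listed genes are part of each library, so totals are not the full depth. No molecular identifiers are named, so intervals and limits cover counting error only.

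Embryos were placed by the deposited sheet of times and barcodes. Gene totals of the 14 late embryos were filtered (filterByExpr, leaving 1256 genes with 83.0% of the reads), scaled by TMM and tested with edgeR 4.0.16 in R 4.3.3 (quasi-likelihood F test, two-sided), with Benjamini-Hochberg adjustment and a threshold of 0.05. The SE printed with a log2 change was derived from the test, as its absolute value divided by the square root of the F statistic. CPM are per 1000000 reads in tested genes, corrected by TMM, and class shares use all listed reads. Named genes are the 2 largest rises and 2 largest falls among calls with at least 20 CPM, 50 reads and the same direction without the embryos at 300, 310 and 320 minutes. Class shares and gene numbers were compared by exact permutation over 3432 assignments of embryos. The near-silent class is only described, but its p entered the Benjamini-Hochberg adjustment of the shares over 4 classes. In the peak test the spread between embryos entered as weights. The tests were checked on simulated data. Each embryo is a separate animal, and each window spans 60 minutes of development, so p-values include differences in age. Alternatives were other scalings, DESeq2 1.42.0, limma 3.58.1, other filters and embryos left out. Gene lists of tissues could not be used without names. Windows, classes and tests were chosen with earlier results of these data known.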

Additional observations from a re-analysis of the deposited data

Results flagged for a closer look

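In 3 of 22 groups of 7 embryos, a single embryo stood apart from the other 6 by more than Dixon's limit. For normal values chance flags about 1 group in 20, but CPM that include zeros need not be normal. CJA15981 and CJA10373 were also chosen by their change in these embryos, so the count is not weighed against chance. CJA15981 had 462 CPM in the embryo at 350 minutes, against 156 CPM at 360 minutes and 0 to 30.3 CPM in the 5 younger embryos. CJA10373 had 13400 CPM in the embryo at 340 minutes, against 555 CPM in the next highest of that window. The early-high class took 3.25% of the reads of the embryo at 390 minutes, which rests on 75 of 2305 reads (95% Wilson interval 2.60% to 4.06%), and 2.21% in the next highest later embryo.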

How the results depend on the processing

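The count of 69 changed genes (5.49% of 1256) was 67 to 84 of 1256 with other scalings and with DESeq2. It was 90 (7.17%) with depth as a covariate and 5 (0.398%) with limma-trend, also of 1256. Other settings tested other numbers of genes. The count was 95 of 803 (11.8%) without the embryos at 360 and 370 minutes. It was 19 of 2411 (0.788%) with all 46 embryos in the fit and 201 of 3930 (5.11%) with no low-count filter. Without the embryos at 300, 310 and 320 minutes it was 26 of 2086 (1.25%). Without those at 330 and 340 minutes it was 16 of 931 (1.72%), 4 higher and 12 lower, with a median log2 change of 0.14. Without the 5 shallow embryos, a setting chosen after the depths were seen, it was 3 of 2158 (0.139%). Leaving out each embryo gave 30 to 117, or 3.28% to 9.76% of the 902 to 1760 genes then tested. The count was 37 of 917 (4.03%) without 330 and 117 of 1694 (6.91%) without 350 minutes. Without 400 minutes 72 were higher and 32 lower, of 1729 (6.02%). The count was 30 of 916 (3.28%) without 410 and 31 of 910 (3.41%) without 430 minutes. CJA10373 turned to 0.67 with DESeq2, to 0.92 without 330 and 340 minutes and ranged from -3.16 to 1.00 when each embryo was left out; the cause was not tested. Without 300, 310 and 320 minutes, then without 330 and 340, then without the 5 shallow embryos, the share differences were 1.29, 1.28 and 1.43 points for near-silent genes, -3.27, -3.47 and -4.15 for steady genes and 0.57, 0.444 and 0.408 for early-high genes; steady and early-high genes did not pass in any of these. Early-high genes ranged from 0.342 to 0.625 over single embryos left out, with 9 of 14 not passing, and middle-high genes passed at 2.59 with the limit of 8 times. The difference in detected genes was 13.4 without 300, 310 and 320 minutes and 6.49 without the 5 shallow embryos. Over single embryos left out it ranged from 19.1 to 42.4, passing only without 360 minutes (exact permutation p = 0.0227). The peak count was 0 in each alternative. In the shallow embryos 3 reads, an approximate upper limit for a count of 0, correspond to 281 to 1150 CPM.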

Other observations

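The level of CJA10373 at 340 minutes had no counterpart among the genes tested. Of 1256 genes, 1 had a late embryo with at least 50 reads and a CPM at least 5 times that of every other late embryo, and this was CJA10373, at 18.7 times the next highest. The criterion was chosen after the values were seen. In the 45 other embryos of the series the gene had at most 439 reads, against 3326 in this embryo. The peak at location 5429 held 92.8% of the gene's reads in the embryo at 340 minutes and 71.9% of the 285 reads in the other 13 late embryos, while the peak at 5265 held 0.752% and 14.7%. That column bears the suffix #2, and its part in the result was not tested.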
